A study of Rattus norvegicus with 12 samples.

Results

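The enzymes described here are the UDP-glucuronosyltransferases (UGT), sulfotransferases (SULT), flavin-containing monooxygenases (FMO), carboxylesterases (CES), aldehyde dehydrogenases (ALDH) and alcohol dehydrogenases (ADH) of rat liver. They were taken as every probe set, a group of short array probes aimed at a single transcript, whose only gene symbol starts with Ugt1, Ugt2, Sult, Fmo, Ces, Aldh or Adh followed by a number or by a letter and a number. Of the 31099 probe sets of the array, 61 met this rule, for 52 genes of the 14217 that have a probe set with a single symbol. Liver RNA came from male Sprague Dawley rats, 9 weeks old, that had eaten a purified AIN-93G diet (control), the same diet with 0.1% wakame powder or the same diet with 1% wakame powder for 28 days. The powder comes from a brown alga eaten in East Asia. An Affymetrix array was run for each of 4 rats per diet. Since the 6 rats of a diet shared cages of 3, effects of cage and of diet cannot be told apart. Signals are given on the log2 scale as deposited.

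These families carry out much of the liver's chemistry on drugs, hormones, bile pigments and dietary compounds. UGT enzymes couple glucuronic acid to their substrates and SULT enzymes a sulfate group, which makes the products water-soluble and ready for export in bile or urine. FMO enzymes oxygenate soft nitrogen and sulfur atoms, and CES enzymes cleave esters, those of fats included. ADH enzymes turn alcohols, ethanol and retinol among them, into aldehydes, and ALDH enzymes turn aldehydes into acids.

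A probe set counted as measured when its SD over the 12 arrays was above 0.01 log2, since most rows of the table hold nearly the same number on every array. By that limit 30 of the 61 probe sets, for 29 genes, were measured and 31 were not. The highest SD among the 31 was 6.18e-08 (Aldh4a1), while the measured probe sets with the smallest SD were Aldh6a1 with 0.0223 and Aldh2 with 0.0946. No member lay between 6.18e-08 and 0.0223, but a limit of 0.05 would leave out Aldh6a1 and a limit of 0.1 also Aldh2. Measured were 4 of 7 UGT probe sets, 9 of 15 SULT, 3 of 7 FMO, 2 of 6 CES, 7 of 20 ALDH and 5 of 6 ADH. The genes with no measured probe set were Ugt2a1, Ugt2b34l1 and Ugt2b7, then Sult1d1, Sult2a1, Sult2b1, Sult5a1 and Sult6b2, then Fmo2, then Ces1e, Ces2c and Ces5a, then 10 of the 17 ALDH genes (Aldh16a1, Aldh18a1, Aldh1a2, Aldh1a3, Aldh3a1, Aldh3a2, Aldh3b1, Aldh4a1, Aldh5a1 and Aldh9a1), and Adh6a. A value that does not vary says nothing on whether these RNAs differed between diets. The UGT1 family, which handles bilirubin, gave no member, because its 2 probe sets list several gene symbols, up to 8. Of the 5 probe sets with several symbols that match the rule, those of UGT1 included, 4 varied. They were left out for their symbols and not for lack of signal.

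None of the 30 measured probe sets passed the test for a difference between diets. With limma and Benjamini-Hochberg adjustment over all 3240 varying probe sets, 0 of the 30 passed an adjusted p of 0.05 for 1% wakame against control, where 54 of the 3240 (1.67%) did. For 0.1% wakame against control 0 of the 30 and 2 of the 3240 (0.0617%) passed, and for 1% against 0.1% wakame 0 of the 30 and 0 of the 3240 (0%). At an unadjusted p under 0.05 the members counted 2 of 30 for 1% wakame against control (6.67%, beside 18.5% of all varying probe sets), 1 of 30 for 0.1% wakame against control (3.33%, beside 11.5%) and 2 of 30 for 1% against 0.1% wakame (6.67%, beside 6.76%). The members' shares lay below or near those of the table in all 3 comparisons. In bulk liver, fewer cells that make an RNA and less of it per cell cannot be told apart.

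For 1% wakame against control 12 members lay higher and 18 lower, with a median difference of −0.07 log2, beside −0.02 over all varying probe sets. For 0.1% wakame against control 17 lay higher and 13 lower (median 0.06, beside −0.02), and for 1% against 0.1% wakame 15 lay higher and 15 lower (median 0.01, beside a median that rounds to 0). With 0.1% wakame against control all 4 UGT, 3 FMO and 2 CES probe sets lay higher and all 5 ADH lower, and SULT and ALDH went both ways. Some of these differences were smaller than their SE, such as Ugt2b15 (0.002 ± 0.137), Ces1c (0.06 ± 0.23) and Adh5 (−0.05 ± 0.11). With 1% wakame against control the 2 CES lay higher and the other families went both ways. With 1% against 0.1% wakame the 4 UGT lay lower, the 2 CES and 5 ADH higher, and the rest went both ways. The 3 comparisons share samples, so they are not separate evidence. Few of these differences held their size under 19 other settings per comparison, 8 of which left out a single rat. For 1% wakame against control 2 of the 30 kept their sign and stayed within 1.5 times of their size, 15 kept their sign only and 13 turned sign under at least 1 setting. For 0.1% wakame against control these numbers were 5, 16 and 9, and for 1% against 0.1% wakame 4, 10 and 16. Rats on one diet differed widely in some members. The SD within a diet had a median of 0.42 log2 over the 30 members and of 0.21 over all varying probe sets, and it was above 1 log2 in 5 of 30 members (16.7%) and in 99 of the 3240 (3.06%).

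**Figure D1:**
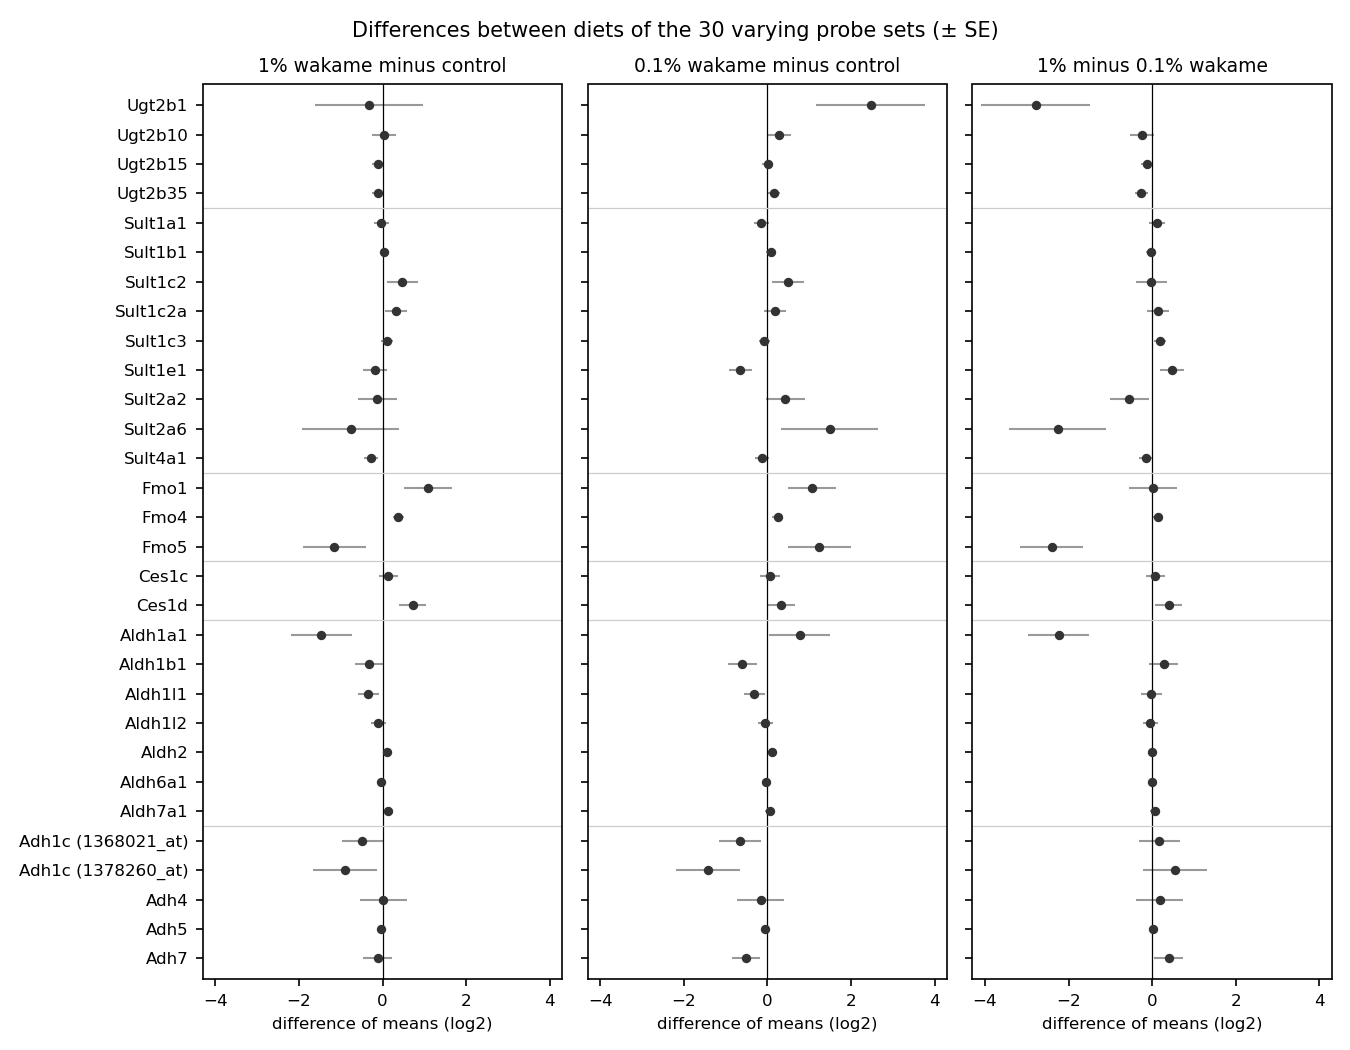
Difference of mean log2 signal between diets for each of the 30 measured probe sets, grouped by family, with bars of ± SE from the limma fit (n = 4 arrays per diet). The widest bars belong to Ugt2b1 (SE 1.30) and Sult2a6 (SE 1.16), and the differences from control run from −1.46 (Aldh1a1 with 1% wakame) to 2.47 (Ugt2b1 with 0.1% wakame).

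Among the UGT2B enzymes, which glucuronidate steroids and many drugs, Ugt2b1 varied most of all members. Its signal was 9.83, 5.34, 7.14 and 10.93 log2 in the 4 control rats, 9.23, 11.80, 12.20 and 9.87 with 0.1% wakame and 6.70, 8.98, 6.26 and 10.01 with 1% wakame. The 3 diets overlapped, although the 0.1% rats stood at or above 9.23 and control and 1% rats were spread over several log2 units. The difference was 2.47 ± 1.30 (SE) for 0.1% wakame against control (limma, adjusted p = 0.525), −2.79 ± 1.30 for 1% against 0.1% wakame (adjusted p = 0.747) and −0.32 ± 1.30 for 1% wakame against control (adjusted p = 0.940). With single rats left out, the first ran from 1.48 (without control rat 2, the lowest) to 3.34 (without control rat 4), and the last turned sign, from −1.32 without control rat 2 to 0.55 without control rat 4. The remaining UGT2B members kept within narrower ranges. Ugt2b35 was at 12.82, 12.26, 12.33 and 12.89 in control, 12.57, 12.84, 12.88 and 12.63 with 0.1% wakame and 12.34, 12.53, 12.38 and 12.64 with 1% wakame. Over all 12 rats Ugt2b15 lay between 11.14 and 11.86 and Ugt2b10 between 9.33 and 10.90. Their differences between diets ran from −0.26 (Ugt2b35, 1% against 0.1% wakame) to 0.28 (Ugt2b10, 0.1% wakame against control), with SEs of 0.14 to 0.29. The Ugt2b10 difference of 0.28 was −0.02 without rat 2 of the 0.1% diet, which stood at 10.90.

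Ugt2b1 and Ugt2b35 nevertheless went up and down together from rat to rat. Their signals correlated over the 12 arrays with Pearson's r = 0.950 and Spearman's rho = 0.930 (permutation p = 4.00e-05 and 9.00e-05, and 0.00056 and 0.00126 adjusted over the 28 pairs of probe sets examined). The r was 0.938 without the 2 arrays farthest from the median of Ugt2b1 and 0.960 when each value was taken relative to its diet's mean. Control rat 2 was the lowest for both, and the range of Ugt2b1 was 6.87 log2 against 0.62 for Ugt2b35. The other UGT2B pairs, all in one gene cluster on chromosome 14, had r from 0.096 to 0.590, and none passed after adjustment. Members of this family have similar sequences, and whether probes of one gene also bind RNA of another was not tested. The starts of the pair are shown because they moved together. They are the 250 bases before the start of each gene from RefSeq (GRCr8), at chr14:21378632-21378881 and chr14:21208191-21208440, both on the plus strand, 5′ to 3′, in lower case because none of the motifs searched below lies in them.
Ugt2b1: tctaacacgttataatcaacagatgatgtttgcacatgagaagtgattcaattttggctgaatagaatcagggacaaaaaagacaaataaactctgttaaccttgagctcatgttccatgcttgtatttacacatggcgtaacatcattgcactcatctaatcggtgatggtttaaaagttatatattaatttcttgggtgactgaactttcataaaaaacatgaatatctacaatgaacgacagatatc
Ugt2b35: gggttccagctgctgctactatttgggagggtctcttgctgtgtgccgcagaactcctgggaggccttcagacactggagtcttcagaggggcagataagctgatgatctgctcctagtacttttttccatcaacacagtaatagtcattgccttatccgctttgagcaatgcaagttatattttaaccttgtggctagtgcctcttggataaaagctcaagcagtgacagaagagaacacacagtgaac
Aligned end to end, these promoters were identical in 144 of 271 columns (53.1%), within the 51.9% to 60.2% of the other UGT2B pairs.

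**Figure D2:**
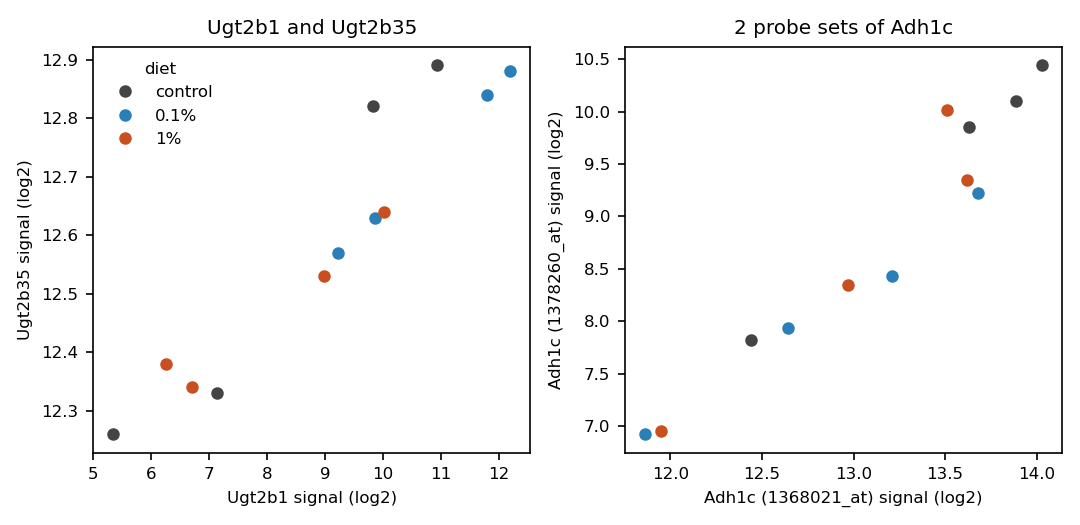
Log2 signal of Ugt2b35 against Ugt2b1 (left) and of the 2 Adh1c probe sets against each other (right), with 1 point per rat coloured by diet. Both pairs run along a line through all 3 diets (r = 0.950 and 0.967, n = 12), and the axes differ in scale.

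Of the sulfotransferases, the hydroxysteroid enzymes Sult2a6 and Sult2a2, which act on bile acids and steroids and are known in rats for higher levels in female liver, showed the widest swings. Sult2a6 was at 10.17, 6.95, 6.35 and 8.30 in control, 8.61, 12.46, 7.70 and 8.97 with 0.1% wakame and 5.98, 6.60, 6.79 and 9.36 with 1% wakame. The diets overlapped, and rat 2 of the 0.1% diet was the highest of all. The difference between 1% and 0.1% wakame was −2.26 ± 1.16 (limma, adjusted p = 0.780), and ran from −2.98 without 1% rat 4 to −1.25 without rat 2 of the 0.1% diet. Sult2a2 was at 6.40, 5.70, 5.82 and 5.99 in control, 5.90, 8.18, 5.75 and 5.78 with 0.1% wakame and 5.92, 5.67, 5.97 and 5.83 with 1% wakame, so the same rat was again the highest. Its mean over the 12 arrays, 6.08, lies below the table's median of 6.59, and no background reading stands behind it. For 0.1% wakame against control its difference was 0.43 ± 0.47 with that rat and −0.16 without it.

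The pair Sult2a6 and Sult2a2 had r = 0.790 (permutation p = 0.0045, adjusted p = 0.018) but rho = 0.455 (adjusted p = 0.205), and r was 0.093 without control rat 1 and rat 2 of the 0.1% diet, so the relation rests on those arrays. Their promoters were the most alike of the 17 pairs of members compared within gene clusters, with 219 of 263 aligned columns identical (83.3%), where the other 16 pairs ranged from 41.9% to 60.3%. They are shown for that likeness, as the 250 bases before each start, 5′ to 3′ on the minus strand, at chr1:84097809-84098058 and chr1:85104533-85104782 (RefSeq, GRCr8). Capitals mark TATAAA, the core of a TATA box, and GTTAAT, part of the site of the liver factor HNF1.
Sult2a6: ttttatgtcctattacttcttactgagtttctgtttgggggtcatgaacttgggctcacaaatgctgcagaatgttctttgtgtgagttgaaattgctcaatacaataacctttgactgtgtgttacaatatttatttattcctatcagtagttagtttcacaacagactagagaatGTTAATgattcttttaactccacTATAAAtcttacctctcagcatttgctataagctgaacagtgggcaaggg
Sult2a2: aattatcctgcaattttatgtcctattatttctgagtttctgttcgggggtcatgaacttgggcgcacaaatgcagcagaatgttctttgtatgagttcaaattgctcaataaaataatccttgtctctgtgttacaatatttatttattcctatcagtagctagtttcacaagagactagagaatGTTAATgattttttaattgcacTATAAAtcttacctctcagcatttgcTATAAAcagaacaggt
Counted from the gene's start, GTTAAT begins at −73 in Sult2a6 and −64 in Sult2a2, followed by TATAAA at −50 and −42, and Sult2a2 holds another TATAAA at −16. Promoters were found for 24 of the 29 measured genes, and 4 motifs were searched on both strands. TATAAA was in 5 of the 24 (20.8%, beside 13.1% of 27457 promoters of the same length), GTTAAT in 2 (8.33%, beside 6.46%), ATCAAT, a core of the HNF6 site, in 1 (4.17%, beside 6.99%) and TTCNNNGAA, the STAT5 pattern, in 0 (beside 7.52%). These are matches of letters in this window only.

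Sult1e1, the estrogen sulfotransferase, was at 12.17, 12.94, 13.09 and 13.27 in control, 12.61, 12.10, 11.94 and 12.24 with 0.1% wakame and 12.81, 11.97, 12.97 and 13.03 with 1% wakame. In each of control and 1% wakame a single rat lay among the 0.1% values, and the other rats lay above all of them. The difference of −0.64 ± 0.28 for 0.1% wakame against control had the smallest unadjusted p of the members in that comparison (0.0446) and did not pass (limma, adjusted p = 0.423). It was −0.88 without control rat 1 and −0.51 without control rat 4. The 1% diet lay 0.47 ± 0.28 above the 0.1% diet (adjusted p = 0.824).

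In the SULT1C group, Sult1c2 was at 6.48, 6.79, 6.87 and 8.38 in control, 7.16, 7.90, 8.08 and 7.35 with 0.1% wakame and 7.72, 7.81, 7.31 and 7.56 with 1% wakame. All 8 wakame rats lay above 3 of the 4 controls, and control rat 4 lay above every other rat. Its differences of 0.49 ± 0.37 and 0.47 ± 0.37 for the smaller and larger dose (limma, adjusted p = 0.686 and 0.536) became 0.91 and 0.89 without that control (adjusted p = 0.199 and 0.112) and 0.28 and 0.25 without control rat 1. Sult1c2a lay 0.18 ± 0.27 and 0.33 ± 0.27 above control at the smaller and larger dose, and Sult1c3, which ran from 11.70 to 12.43, at −0.07 ± 0.14 and 0.11 ± 0.14. Sult1c2 and Sult1c2a correlated with r = 0.696 (permutation p = 0.0138, adjusted p = 0.035) and rho = 0.629 (adjusted p = 0.0864), and r was 0.531 without control rats 1 and 4. The phenol sulfotransferases Sult1a1 (11.31 to 12.06) and Sult1b1 (12.12 to 12.64) had differences from −0.15 to 0.12. Sult4a1, known mainly from brain, was between 6.40 and 7.26 and lay at −0.29 ± 0.17 with 1% wakame against control (adjusted p = 0.390).

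The flavin monooxygenases held the only member whose rats did not overlap between 1% wakame and control. Fmo4 was at 7.06, 7.16, 7.27 and 6.88 in control, 7.32, 7.05, 7.37 and 7.63 with 0.1% wakame and 7.64, 7.56, 7.30 and 7.37 with 1% wakame. The 4 rats of the larger dose lay above all controls by at least the gap from 7.27 to 7.30, while 1 rat of the smaller dose lay within the controls. The difference from control was 0.38 ± 0.13 for 1% wakame (limma, unadjusted p = 0.0167, adjusted p = 0.180) and 0.25 ± 0.13 for 0.1% wakame (adjusted p = 0.532). Non-overlap was found in 1 of 30 members, beside 11.3% of all varying probe sets in this comparison. A second probe set of Fmo4 did not vary and gives no measure. Over 8 fits that each left out a single rat of these diets, the difference ran from 0.31 to 0.44.

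Fmo1, the main drug-oxygenating form of rat liver, was at 7.38, 7.48, 9.01 and 7.04 in control, 8.16, 8.97, 8.94 and 9.08 with 0.1% wakame and 9.07, 10.23, 7.44 and 8.51 with 1% wakame. It lay higher by 1.06 ± 0.57 with the smaller and 1.09 ± 0.57 with the larger dose, and neither passed (limma, adjusted p = 0.537 and 0.338). Control rat 3 lay among the 0.1% rats and the other 3 controls below all of them, while 1% rat 3 lay among the controls. With single rats left out, the difference for 0.1% wakame ran from 0.83 (without control rat 4) to 1.49 (without control rat 3), and that for 1% wakame from 0.61 (without 1% rat 2) to 1.54 (without 1% rat 3). Fmo1 and Fmo4 are next to each other on chromosome 13, and their signals had r = 0.703 and rho = 0.706 (permutation p = 0.0106 and 0.0125, adjusted p = 0.0329 and 0.0502). The r was 0.524 without control rat 4 and 1% rat 2, and 0.564 relative to diet means.

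Fmo5, which oxygenates ketones and has been tied to body weight in mice, went the other way between the doses. It was at 9.12, 7.97, 8.43 and 9.73 in control, 9.47, 11.06, 9.84 and 9.85 with 0.1% wakame and 5.33, 9.38, 7.64 and 8.27 with 1% wakame. Every 0.1% rat lay above every 1% rat, with the nearest at 9.47 and 9.38. The difference between 1% and 0.1% wakame was −2.40 ± 0.75 (limma, unadjusted p = 0.00921, adjusted p = 0.592), and −1.63 without 1% rat 1. Against control it lay at 1.25 ± 0.75 with the smaller dose (adjusted p = 0.581) and −1.16 ± 0.75 with the larger (adjusted p = 0.445), the latter running from −1.73 without 1% rat 2 to −0.38 without 1% rat 1.

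Aldh1a1, a cytosolic enzyme that makes retinoic acid from retinal, shared that order. It was at 11.68, 7.83, 8.24 and 9.47 in control, 9.59, 9.97, 10.66 and 10.09 with 0.1% wakame and 8.52, 6.88, 8.21 and 7.76 with 1% wakame. The 0.1% rats, from 9.59 up, did not overlap with the 1% rats, which reached 8.52, and 2 of the 1% rats lay below every control. The difference between the doses was −2.24 ± 0.73 (limma, unadjusted p = 0.0110, adjusted p = 0.603). Non-overlap between the doses was found in Aldh1a1 and Fmo5 alone, 2 of 30 members (6.67%), beside 3.77% of all varying probe sets. Leaving out a single rat of these diets gave −2.46 to −1.92. For 1% wakame against control the difference was −1.46 ± 0.73 (adjusted p = 0.310), and ran from −1.96 without control rat 2 to −0.67 without control rat 1.

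The 4 members with the largest differences between the doses, Ugt2b1, Fmo5, Sult2a6 and Aldh1a1, also had SDs within a diet above 1 log2, as did one Adh1c probe set. Ugt2b1 and Fmo5 correlated with r = 0.761 and rho = 0.797 (permutation p = 0.00238 and 0.00304, adjusted p = 0.0111 and 0.0142), with r = 0.787 without control rat 2 and 1% rat 3 and 0.660 relative to diet means. Ugt2b1 and Sult2a6 had r = 0.680 (permutation p = 0.0128, adjusted p = 0.035) and rho = 0.650 (adjusted p = 0.0864), with r = 0.667 without the same 2 arrays and 0.553 relative to diet means. Sult2a6 and Fmo5 had r = 0.677 (permutation p = 0.0186, adjusted p = 0.04) and rho = 0.587 (adjusted p = 0.113), with r = 0.586 without control rat 1 and rat 2 of the 0.1% diet and 0.520 relative to diet means. The Adh1c probe set did not follow these, with r of −0.363 to Ugt2b1, 0.006 to Sult2a6 and −0.270 to Fmo5 (adjusted p = 0.307, 0.984 and 0.475). These pairs were taken among the 4 probe sets with the largest SD within a diet, so pairs with Aldh1a1 were not examined. The permutations disregarded diet, so the differences between the doses that Ugt2b1, Fmo5 and Sult2a6 share enter these p values. No p was computed for the r relative to diet means. The difference between the 3-prime and 5-prime Gapdh probe sets, a sign of RNA integrity, ran from 0.96 to 1.20 log2 with 0.1% wakame and from 1.04 to 1.42 with 1% wakame (1.04 to 1.07 in control). With it as a covariate the differences between the doses were −2.64 for Fmo5, −1.92 for Aldh1a1, −2.29 for Ugt2b1 and −1.81 for Sult2a6. For 1% wakame against control that covariate turned Ugt2b1 from −0.32 to 0.29, and moved Sult2a6 from −0.76 to −0.22 and Fmo1 from 1.09 to 0.61. It also turned the sign of Adh4 (0.02 to −0.62), Sult1e1 (−0.17 to 0.06) and Aldh1l2 (−0.10 to 0.02). Fmo4 and Ces1d, the only members with an unadjusted p under 0.05 for 1% wakame against control, moved from 0.38 to 0.31 and from 0.72 to 0.61. Their unadjusted p was then 0.0942 and 0.163 (limma, adjusted p = 0.528 and 0.651).

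**Figure D3:**
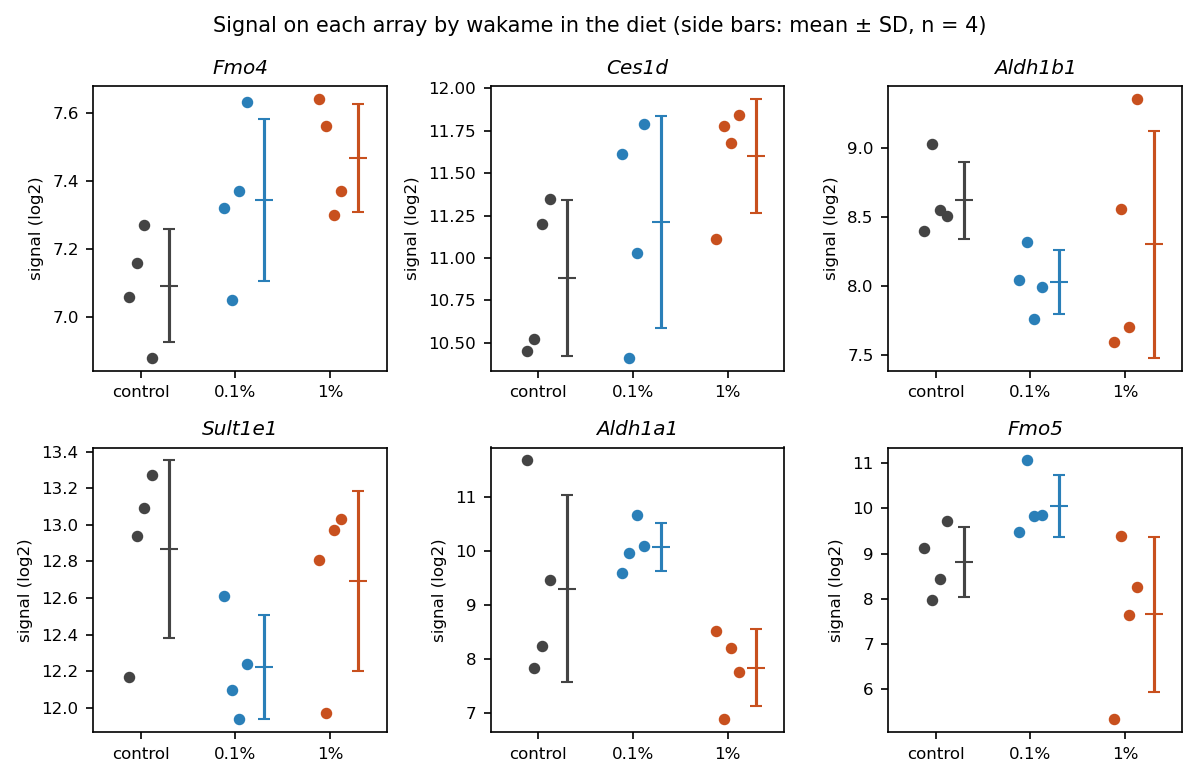
Log2 signal on each of the 12 arrays by diet for 6 members, with the mean ± SD of 4 rats beside each group. Fmo4 with 1% wakame lies above all controls, Aldh1b1 with 0.1% wakame lies below all controls, and for Aldh1a1 and Fmo5 all 0.1% rats lie above all 1% rats.

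Among the other aldehyde dehydrogenases, Aldh1b1, a mitochondrial form that acts on acetaldehyde, was at 8.40, 9.03, 8.55 and 8.51 in control, 8.04, 8.32, 7.76 and 7.99 with 0.1% wakame and 7.59, 8.56, 7.70 and 9.36 with 1% wakame. The 0.1% rats lay below all controls, with the nearest at 8.32 and 8.40, and the 1% rats lay both below and above them. The difference for 0.1% wakame was −0.60 ± 0.34 (limma, unadjusted p = 0.111, adjusted p = 0.563), and −0.46 without control rat 2. It was the single member whose rats did not overlap in this comparison, 1 of 30 (3.33%), beside 5.86% of all varying probe sets.

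Aldh2, the mitochondrial enzyme that clears acetaldehyde after ethanol, was one of the steadiest members. It was at 12.06, 12.24, 12.13 and 11.98 in control, 12.18, 12.29, 12.17 and 12.26 with 0.1% wakame and 12.18, 12.26, 12.29 and 12.12 with 1% wakame, all within 0.31 log2. The differences from control were 0.12 ± 0.06 and 0.11 ± 0.06 (limma, adjusted p = 0.519 and 0.383). Aldh1l1, the cytosolic 10-formyltetrahydrofolate dehydrogenase of folate metabolism, was at 12.11, 11.29, 11.46 and 10.85 in control and between 10.64 and 11.51 in the 8 wakame rats. Its differences of −0.32 ± 0.25 and −0.35 ± 0.25 became −0.09 and −0.12 without control rat 1 and −0.51 and −0.54 without control rat 4. Its mitochondrial counterpart Aldh1l2 lay between 10.28 and 11.15, with differences from −0.10 to −0.04. Aldh7a1, of lysine breakdown, lay between 11.29 and 11.91 and differed by at most 0.12 ± 0.12. Aldh6a1, of valine breakdown, stayed between 8.73 and 8.81 with differences from −0.03 to −0.01, and a second probe set for it did not vary.

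The carboxylesterases were represented by Ces1d and Ces1c, which are neighbours on chromosome 19. Ces1d, a hydrolase of stored triglyceride in the endoplasmic reticulum, was at 10.45, 10.52, 11.20 and 11.35 in control, 11.61, 10.41, 11.03 and 11.79 with 0.1% wakame and 11.11, 11.78, 11.68 and 11.84 with 1% wakame. Of the 4 rats on 1% wakame, 3 lay above all controls and the fourth at 11.11 lay among them. The difference of 0.72 ± 0.32 for 1% wakame against control had an unadjusted p of 0.0469 and did not pass (limma, adjusted p = 0.262), and it ran from 0.58 to 0.89 when single rats were left out. For 0.1% wakame it was 0.33 ± 0.32 (adjusted p = 0.766). Ces1c, a form secreted into plasma, was at 12.51, 12.15, 13.02 and 11.98 in control, 12.25, 12.56, 12.80 and 12.31 with 0.1% wakame and 12.59, 12.94, 12.41 and 12.25 with 1% wakame. The diets overlapped throughout, with differences from control of 0.06 ± 0.23 and 0.13 ± 0.23. A second probe set of Ces1c did not vary. Ces1d and Ces1c had r = −0.058 and rho = −0.196 (permutation p = 0.855 and 0.541, adjusted p = 0.886 and 0.561), and r = −0.028 without control rats 3 and 4.

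All 5 alcohol dehydrogenase probe sets lay lower with 0.1% wakame than in control (median −0.51), and none passed. Adh1c, annotated as the class I enzyme that oxidises ethanol and retinol, was measured by 2 probe sets. The first was at 14.03, 13.89, 13.63 and 12.44 in control, 12.64, 13.68, 11.86 and 13.21 with 0.1% wakame and 13.51, 13.62, 11.95 and 12.97 with 1% wakame. The second was at 10.44, 10.10, 9.85 and 7.82 in control, 7.93, 9.22, 6.92 and 8.43 with 0.1% wakame and 10.01, 9.35, 6.95 and 8.34 with 1% wakame. Both were lowest in rat 3 of the 0.1% diet and next in rat 3 of the 1% diet, and both were highest in control rat 1. Control rats 1 to 3 lay above all 0.1% rats in the second probe set, and control rat 4 lay among them. The differences for 0.1% wakame against control were −0.65 ± 0.50 and −1.43 ± 0.76 (limma, adjusted p = 0.686 and 0.533), and the latter was −2.01 without control rat 4. For 1% wakame they were −0.48 ± 0.50 and −0.89 ± 0.76 (adjusted p = 0.657 and 0.572), −0.13 and −0.32 without 1% rat 3, −0.83 and −1.47 without control rat 4, and −0.91 and −1.52 with the Gapdh covariate.

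Adh4, annotated as a class II enzyme, was at 8.97, 7.27, 8.00 and 7.63 in control, 7.83, 8.13, 6.44 and 8.83 with 0.1% wakame and 8.55, 8.65, 6.88 and 7.86 with 1% wakame, with means of 7.97, 7.81 and 7.99. With the Gapdh covariate its difference for 1% wakame against control was −0.62 ± 0.62. Adh5, the formaldehyde and S-nitrosoglutathione enzyme present in all tissues, lay between 10.43 and 10.98 and differed by at most 0.05 in size between diets. Adh7, the retinol-active form known from stomach, lay between 5.84 and 7.44, with a mean of 6.56, just below the table's median. Its difference was −0.51 ± 0.34 for 0.1% wakame and −0.12 ± 0.34 for 1% wakame against control (limma, adjusted p = 0.636 and 0.910).

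These genes lie in one cluster on chromosome 2, and 4 of their 10 pairs of probe sets passed the adjusted threshold for both r and rho, 1 of them the 2 probe sets of Adh1c. The 2 Adh1c probe sets had r = 0.967 and rho = 0.937 (permutation p = 1.00e-05, the smallest the permutations can give, and 3.00e-05, adjusted p = 0.00028 and 0.00084), with r = 0.936 without rat 3 of either wakame diet. Adh7, the direct neighbour of Adh1c, correlated with the second Adh1c probe set at r = 0.861 and rho = 0.895 (permutation p = 0.00065 and 0.00021, adjusted p = 0.00455 and 0.00196), and at r = 0.867 without the same 2 arrays. Adh4 and Adh5, also direct neighbours, had r = 0.850 and rho = 0.825 (permutation p = 0.00031 and 0.00152, adjusted p = 0.00289 and 0.0106), and r = 0.734 without them. The first Adh1c probe set and Adh4 had r = 0.726, which was 0.356 without rat 3 of both wakame diets and rests on those arrays. Adh4 and Adh7 had r = 0.440 (adjusted p = 0.203) and Adh5 and Adh7 r = 0.320 (adjusted p = 0.385). Adh1c and Adh5 had rho of 0.462 and 0.441 for the 2 probe sets (adjusted p = 0.205 for both), and r of 0.650 and 0.618 that became 0.352 and 0.341 without rat 3 of both wakame diets. Over the 22 pairs examined within a gene cluster the median r was 0.634, and over all 435 pairs of members it was 0.006. Those 22 were grouped by gene family, and 10 of them are the ADH pairs, the 2 probe sets of Adh1c included. Measured neighbours outside these groups, such as Sult1e1 and Sult1b1 on chromosome 14 with 1 coding gene between them, were not examined. Of the 28 pairs examined, 6 passed the adjusted threshold for both r and rho. Whether similar sequences or shared control underlie a pair was not tested.

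**Figure D4:**
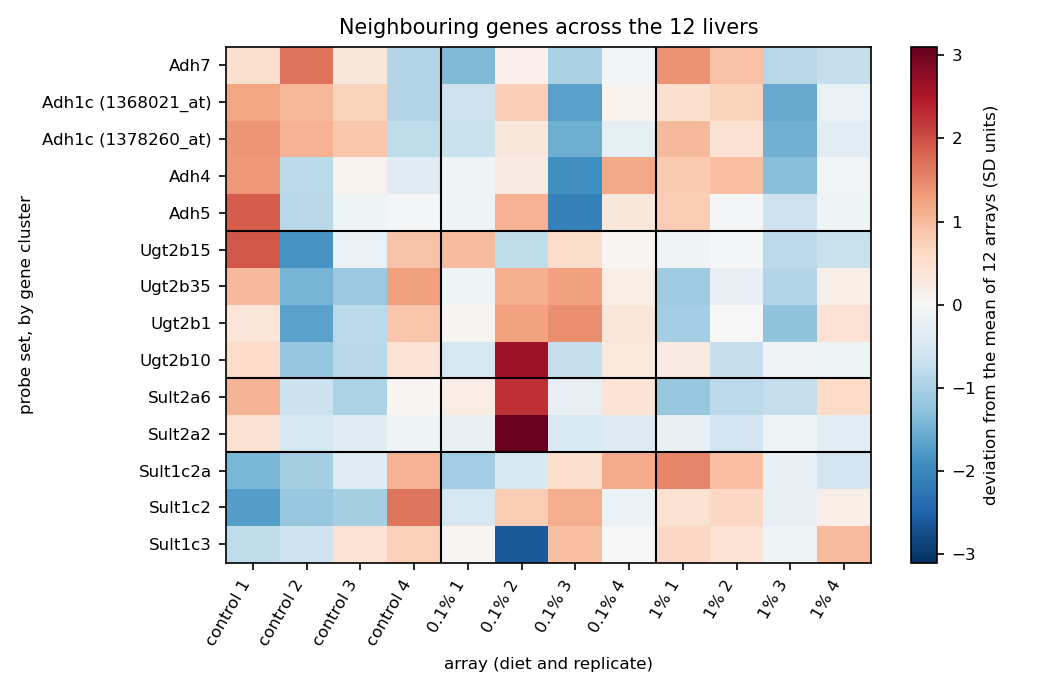
Signal of 14 probe sets in 4 gene clusters on each of the 12 arrays, as the deviation from the mean of the 12 arrays in units of that probe set's SD (red above, blue below). The rows of Ugt2b1 and Ugt2b35 and the 2 rows of Adh1c change colour together from rat to rat, whereas in control rat 2 Adh7 and Adh1c are above and Adh4 and Adh5 below their means. Rat 2 of the 0.1% diet is the highest for Ugt2b10, Sult2a6 and Sult2a2 and the lowest for Sult1c3.

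Genes that serve these enzymes were taken from lists written with earlier results of these data known. Of 9 genes of cofactor supply on the array, 5 were measured and 0 passed in any comparison. Ugdh, which makes UDP-glucuronic acid, lay at −0.62 ± 0.28 with 0.1% wakame against control (limma, adjusted p = 0.434) and −0.43 ± 0.28 with 1% wakame, and Papss2, which makes the sulfate donor PAPS, at 0.17 ± 0.28 and 0.07 ± 0.28. Of 11 receptors and regulators 5 were measured and 0 passed. The xenobiotic receptor CAR (Nr1i3) lay at 0.82 ± 0.41 and 1.16 ± 0.41 with the smaller and larger dose (adjusted p = 0.492 and 0.175), PXR (Nr1i2) at 0.04 ± 0.04 and 0.05 ± 0.04, and NRF2 (Nfe2l2) at −0.46 ± 0.26 and −0.69 ± 0.26.

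Of 12 other hydrolases 10 were measured, with 3 higher and 7 lower for 1% wakame against control, and of 20 other aldehyde, alcohol and ketone enzymes 14 were measured, with 9 higher and 5 lower. Esd, an esterase that also acts on S-formylglutathione, lay at −0.26 ± 0.09 (limma, adjusted p = 0.163), and Akr7a3, an aflatoxin aldehyde reductase, at −1.76 ± 0.84 with the larger and −2.06 ± 0.84 with the smaller dose (adjusted p = 0.290 and 0.383). Cyp2e1, the ethanol-oxidising P450, lay at 0.67 ± 0.35 and 0.90 ± 0.35 with the larger and smaller dose. Of 13 other conjugating enzymes 8 were measured, 2 higher and 6 lower with 1% wakame. Gsta3 differed most, at −2.01 ± 0.70 with the larger and −1.05 ± 0.70 with the smaller dose (limma, adjusted p = 0.179 and 0.636). The 2 higher with 1% wakame were Baat at 0.17 ± 0.08 and Glyat at 0.27 ± 0.21. Among 10 measured transporters of 12 on the array, 8 lay higher and 2 lower with 1% wakame against control (median 0.15). Abcb4, the phospholipid exporter of bile, came nearest to the threshold at 0.96 ± 0.21 (limma, adjusted p = 0.0579), and Slco1a4, an uptake carrier, lay at 1.06 ± 0.33 (adjusted p = 0.131). None of these lists had a member past the adjusted threshold in any of the 3 comparisons. Only some genes of each list are named.

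The liver label was set against marker genes. On every array Alb and Ttr of hepatocytes stood at 14.61 and 13.96 log2, values that did not vary, and Apoa1 at 12.63 or more, and the summed level of 9 hepatocyte markers ran from 117.6 to 118.9 in control, 118.0 to 119.8 with 0.1% wakame and 116.4 to 118.3 with 1% wakame. Only 4 of the 9 vary, so most of that sum is fixed. Of these, Tat lay at −1.81 ± 0.48 for 1% against 0.1% wakame (limma, adjusted p = 0.498). Against control, Tat lay at 0.77 ± 0.48 with 0.1% wakame and −1.04 ± 0.48 with 1% wakame (limma, adjusted p = 0.596 and 0.28). Differences of Apoa1, Cps1 and Apob were at most 0.08 in size. Of the other lists, 5 of 6 Kupffer cell, 4 of 9 stellate cell, 2 of 6 endothelial, 3 of 3 erythroid, 1 of 5 lymphocyte and 0 of 4 cholangiocyte markers vary, and their summed levels carry little beyond those few. All 4 varying stellate markers lay higher with 1% wakame than in control, by 0.65 ± 0.31 for Lum, 0.23 ± 0.22 for Dcn, 0.18 ± 0.19 for Col3a1 and 0.16 ± 0.13 for Reln (limma, adjusted p = 0.290 to 0.667). The 3 erythroid and 2 endothelial markers that vary also lay higher, Kupffer cell markers split 3 and 2, and the lymphocyte marker lay lower. With 0.1% wakame all 5 Kupffer cell, 3 erythroid and 2 endothelial markers lay higher than in control. Stellate markers then split 2 and 2, and the lymphocyte marker lay lower. The part of these cell types in the members' differences was not tested. Arrays of one diet correlated at 0.911 to 0.961 over the 3240 varying probe sets, and no pair held identical values.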

How the data were processed

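Per the labels' protocols, biotin-labelled cRNA was made from 100 ng of total liver RNA with a 3-prime kit and read on an Affymetrix rat array. The authors deposited a single table of 31099 probe sets, taken to be log2 signals because its values run from 3.15 to 14.6. The submitters' processing notes name R 2.7.2. How background, normalization and summarisation were done is not given in the sources used here, and neither is a genome build. No scanner files were used, so values carry no detection call. Precision is limited by the number of arrays. Levels of different probe sets are not comparable. Brightness was used to choose which values to print. For genes of the lists and markers, differences came from the brightest varying probe set of each gene. The table's median marked 2 dim members. Among the other settings, a fit kept only the brightest probe set of each gene. Another left out probe sets below the table's median.

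The deposited values were used with no further normalization. After 57 control probe sets were left out, 3240 of 31042 had an SD over 0.01 and 27802 did not. With 1 mean for each diet, the 3240 were fitted over the 12 arrays in limma 3.58.1 (trended eBayes, R 4.3.3), and p was adjusted by Benjamini-Hochberg over all of them. Every probe set in the fit passed the SD limit on all arrays together, without regard to diet. The script was tested on simulated data. Gene symbols came from the platform annotation, and gene order and promoters from RefSeq (GRCr8). Promoters were matched for 44 of the 52 genes and aligned globally with Biopython 1.88. Correlations used 100000 permutations of the 12 arrays without regard to diet, so shared differences between diets enter r and its p. All 30 measured members are named, and values on every array are given for members whose diets did not overlap, for the 6 largest differences of a comparison, and for the most variable and brightest probe set of each family, and for a few others whose order turned on a single array (Sult1c2, Adh4), which were chosen after their values were seen. Members and lists were chosen with earlier results of these data known.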

Additional observations from a re-analysis of the deposited data

Results flagged for a closer look

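Single arrays stood apart from the other 3 of their diet, by Dixon's test, in 2 of the 90 groups of 4 arrays examined, and chance alone gives about 5% of groups. Sult2a2 was at 8.18 log2 in rat 2 of the 0.1% diet, where the nearest of the other 3 rats was at 5.90, and Sult2a6 was highest in the same rat. Fmo1 was at 8.16 in rat 1 of the 0.1% diet, below the nearest of the other 3 at 8.94.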

How the results depend on the processing

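Under 19 other settings per comparison, 8 of which left out a single array of the 2 diets compared, limma called 0 of the measured members (smallest adjusted p 0.111, 0.199 and 0.472 for 1% wakame against control, 0.1% wakame against control and 1% against 0.1% wakame). The sign of a member's difference changed in 32, 18 and 39 of 564 values each, none of them called. The count over all varying probe sets did move. For 1% wakame against control it was 54, and 9 over all 31042 probe sets with no SD limit, 26 with 1 probe set per gene, 28 with only the 2 diets compared, 4 with the Gapdh covariate and 12 with the replicate number as a block. With single arrays left out it ran from 7 to 36, the values being 13, 8, 33 and 9 without control rats 1 to 4 and 36, 7, 34 and 11 without 1% rats 1 to 4. For 0.1% wakame against control it was 2, and 5 with no SD limit, 1 with quantile normalization, 1 with median centring, 0 with only the 2 diets compared and 0 with the replicate block, and 0 to 3 with single arrays left out (0 without control rat 3 or 4 or 0.1% rat 3 or 4, 1 without control rat 1, 3 without 0.1% rat 1). For 1% against 0.1% wakame it was 0, and 6 with no SD limit, and 0 to 1 with single arrays left out (1 without 0.1% rat 1). The causes were not tested. The replicate block called 0 members. The replicate numbers did not pair the arrays (correlation of deviations from diet means −0.115 to 0.092 over 12 pairs of the same number). The median difference over all varying probe sets lay from −0.020 to −0.004 log2 as deposited and from −0.006 to 0.009 after quantile normalization or median centring. A dim signal has no background to be set against.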

Other observations

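The order of the 3 diet means, given as values with no test, split the 30 probe sets. In 7 (Aldh1a1, Fmo5, Sult2a2, Sult2a6, Ugt2b1, Ugt2b15 and Ugt2b35) the mean was highest with 0.1% wakame and lowest with 1% wakame. In 7 others (both of Adh1c, Adh5, Adh7, Aldh1b1, Sult1a1 and Sult1e1) it was highest in control and lowest with 0.1% wakame. The mean was highest with 1% wakame and lowest in control in 6 (Aldh7a1, Ces1c, Ces1d, Fmo1, Fmo4 and Sult1c2a) and the reverse, with 0.1% wakame between, in 4 (Aldh1l1, Aldh1l2, Aldh6a1 and Sult4a1). Another 4 (Aldh2, Sult1b1, Sult1c2 and Ugt2b10) were highest with 0.1% wakame and lowest in control. The last 2 (Adh4 and Sult1c3) were highest with 1% wakame and lowest with 0.1% wakame.

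Single rats held many of the extreme values. Control rat 1 was the highest of 12 in 8 of the 30 probe sets and the lowest in 2. Rat 2 of the 0.1% diet was the highest in 5 (Aldh2, Ugt2b10, Fmo5, Sult2a6 and Sult2a2) and the lowest in 3 (Sult1c3, Sult1a1 and Ces1d), and rat 1 of the 1% diet was the lowest in 6.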
